A study of Homo sapiens with 16 samples.

Results

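The knockdown of EZH2 in MDA-MB-468 cells was measured on 4 of the 16 arrays of the series, picked by sample title. MDA-MB-468 is an established human breast cancer line of the basal-like type. On 2 arrays the cells had been stably infected with a scrambled short hairpin RNA (shRNA), and on 2 arrays with an shRNA against EZH2 (shEZH2). Both groups met viral supernatant with polybrene at 6 µg/ml, went under puromycin at 1 µg/ml from 48 h after infection and were seeded at equal confluence 24 h before RNA extraction. Total RNA (200 ng) was hybridised to Affymetrix Human Gene 1.0 ST arrays, which read each gene through a cluster of probes spread along its transcripts. Levels and changes in the other line of the series, HCC70, are given here only for comparison with MDA-MB-468. For the knockdown in HCC70, 2 shEZH2 arrays are set against 2 scrambled arrays of set a. The 2 scrambled arrays of set b are an alternative control. All 16 arrays entered the fit that gave the errors and p-values, and the filter for the clusters tested. Among them were HCC70 arrays with an shRNA against EED, with the empty vector plKO Puro and with EZH2 overexpressed (labelled fip EZH2). The sources used here do not give the hairpin sequence, the number of hairpins or the number of clones, so an effect of the hairpin on other transcripts cannot be told apart from an effect of losing EZH2. Nothing says whether duplicates were separate cultures, so the p-values measure the spread between duplicates over all 16 arrays, which may be technical.

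EZH2 is the enzyme of Polycomb repressive complex 2 (PRC2). It places methyl groups on lysine 27 of histone H3, a mark of silenced genes, and needs its partners EED and SUZ12 to do so. A second complex, PRC1, carries CBX proteins that bind this mark and RING proteins that ubiquitinate histone H2A. In the mammary gland EZH2 is known to support progenitor cells, and its own gene is driven by E2F factors in cycling cells.

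All values are log2 signals from RMA, a method that corrects background, normalizes arrays to each other and merges the probes of a cluster. Their medians ran from 5.37 to 5.43 over the 4 arrays, and 43.1% to 43.7% of the 33297 clusters reached log2 6, the floor below which signal was not taken as shown above background. Duplicates correlated at r = 0.9954 (scrambled) and 0.9947 (shEZH2) over all clusters. The arrays bore the known features of the line. EGFR, which is amplified in it, read 11.1 to 11.6 against 8.76 to 9.15 in HCC70, and the tumour suppressors RB1 (3.89 to 4.03) and SMAD4 (3.61 to 3.95), both lost in it, were below the floor on all 4 arrays. Epithelial genes were high, with EPCAM at 11.5 to 11.8 and KRT8 at 12.3 to 12.6, and the hormone receptor genes ESR1 and PGR stayed below the floor. Of 24 markers of blood, endothelial, fat and other cell types, 21 were below the floor on every array. The summed linear signal of these markers was 771 and 746 on the scrambled and 753 and 736 on the shEZH2 arrays.

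EZH2 itself had a log2 signal of 10.08 and 10.14 on the scrambled arrays and 8.39 and 8.48 on the shEZH2 arrays. Both knockdown arrays thus lay well below both controls. The change was -1.68 ± 0.07 (SE from limma, n = 2 arrays per group), a 3.19-fold fall (limma adjusted p = 2.56e-07). EZH2 was the second largest fall of any gene that met the naming rule, after IGFBP5. In HCC70 the knockdown changed EZH2 by -1.47 (scrambled set a).

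Among the rest of PRC2, the changes were small. EED, the subunit that reads the mark, read 9.05 and 8.91 on the scrambled and 9.29 and 9.04 on the shEZH2 arrays (change 0.18, adjusted p = 0.313). The groups differed by less than the error allows to call. EZH1, the related enzyme that can stand in for EZH2, moved by -0.30 ± 0.08 (adjusted p = 0.043), SUZ12 by -0.35 ± 0.10 (0.0469) and MTF2, which helps bring PRC2 to CpG islands, by -0.33 ± 0.09 (0.043). These 3 were called lower, but each call ended when scrambled replicate 2 was left out, with changes of -0.25, -0.21 and -0.31, and when shEZH2 replicate 1 was left out, with -0.32, -0.31 and -0.20. The calls of EZH1 (-0.27) and SUZ12 (-0.40) also ended without shEZH2 replicate 2, and that of MTF2 (-0.34) without scrambled replicate 1. The histone binders RBBP4 (-0.23, adjusted p = 0.0944) and RBBP7 (-0.15, 0.268) and the accessory subunits JARID2 (0.21, 0.194), AEBP2 (-0.19, 0.221), LCOR (-0.21, 0.0961), PHF1 (0.20, 0.379) and PHF19 (-0.10, 0.544) did not pass. With EZH2, the target of the hairpin, 4 of 12 PRC2 genes were called lower (33.3%, against 6.75% of all genes). The other 3 calls are those given above that ended with single arrays left out.

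Of 16 PRC1 genes tested, 1 was called, lower (6.25%, near the 6.75% of all genes). This was RYBP, a subunit of the variant PRC1 that works without CBX proteins. It read 7.87 and 8.15 on the scrambled and 7.43 and 7.53 on the shEZH2 arrays, a fall of 0.54 ± 0.09 on the log2 scale (change -0.54, adjusted p = 0.00686). The groups did not overlap, but without scrambled replicate 2 the change was -0.40 and the call ended (adjusted p = 0.0741). KDM6A, a demethylase that removes the PRC2 mark, was at 6.83 and 7.07 against 6.41 and 6.58 (-0.45, adjusted p = 0.0246), a call that ended without scrambled replicate 2 (-0.33) and without shEZH2 replicate 1 (-0.37).

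Across the array, 16175 clusters passed the floor on at least 2 of the 16 arrays and were tested. By limma at a Benjamini-Hochberg adjusted p under 0.05, 1343 were called (8.3%), 442 higher (2.73%) and 901 lower (5.57%). Counting each named gene once, 993 of 11145 were called (8.91%), 241 higher (2.16%) and 752 lower (6.75%). These shares are the background against which the gene groups are set. The changes were mostly modest: called rises of genes had a median of 0.47 and called falls of -0.465, and 8 genes rose and 26 fell at least 2-fold. Without regard to the test, both shEZH2 arrays lay above both scrambled arrays in 22.3% of clusters and below them in 29%.

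These totals rested heavily on single arrays. Without scrambled replicate 2 the calls dropped to 231 (87 higher, 144 lower), and without shEZH2 replicate 1 to 628. A fit on the 4 arrays alone, which has only their own spread to go by, called 21. In all, 163 genes (48 higher, 115 lower) were called whichever of the 4 arrays was left out, and these are called stable here. The split between rises and falls also depended on scaling: 32.9% of calls were rises with the values as deposited, 18.8% with each array centred on its median and 42.3% after a further quantile normalization. Those scalings shifted the median cluster by -0.06 and 0.03.

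IGFBP5, a secreted protein that binds insulin-like growth factors and holds them in the matrix, had the largest fall of all. It stood at 7.76 on both scrambled arrays and at 4.92 and 4.99 on the shEZH2 arrays. The knockdown arrays were below the floor, so the true fall may exceed the measured 6.98-fold (-2.80 ± 0.10, adjusted p = 5.07e-08). CRISP3, a secreted protein of exocrine glands, read 9.51 and 9.48 against 7.94 and 8.12, a 2.76-fold fall (-1.46 ± 0.10, adjusted p = 1.73e-05). Its 4 values fell into 2 well separated pairs. TIMP3, a matrix-bound inhibitor of metalloproteases that Polycomb silences in several cancers, was at 8.76 and 8.69 in control and at 7.24 and 7.31 in knockdown cells. It fell 2.74-fold (-1.45 ± 0.12, adjusted p = 5.22e-05). STYX, a catalytically dead phosphatase that binds ERK, read 9.51 and 9.63 against 8.16 and 8.46 (-1.26 ± 0.11, adjusted p = 0.000126).

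Fibronectin (FN1), the matrix glycoprotein bound by integrins, read 8.40 and 8.56 on the scrambled and 7.38 and 6.84 on the shEZH2 arrays (-1.37 ± 0.15, adjusted p = 0.000439). NPNT, a basement membrane ligand of integrins, was at 8.17 and 8.15 against 6.96 and 6.93 (-1.22 ± 0.13, adjusted p = 0.000364). Every scrambled array exceeded every knockdown array for both of these adhesion proteins. TF, which encodes the iron carrier transferrin, fell from 8.11 and 8.06 to 6.81 and 6.71 (-1.32 ± 0.16, adjusted p = 0.00097). SLC34A2, a sodium phosphate cotransporter of lung and breast epithelium, read 8.98 and 8.95 against 7.95 and 7.56 (-1.21 ± 0.12, adjusted p = 0.000334). The remaining stable falls were PLA2G2A, a secreted phospholipase (-1.56), GLYATL2, a glycine acyltransferase (-1.55), and HCAR2, a receptor for niacin and hydroxybutyrate (-1.45). HCAR2 read 6.23 and 7.01 in control cells, a wider gap than in the other two, against 5.23 and 5.12.

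Calls of 3 further large falls depended on an array. ELAPOR1, an oestrogen-induced membrane protein, changed by -1.27 (adjusted p = 0.00432), and by -1.13 without scrambled replicate 2 (adjusted p = 0.0554). The spliceosomal RNA gene RNU4-1 changed by -1.18 (adjusted p = 0.00888), and by -0.96 without that array (0.102). SNORD41, a small nucleolar RNA, read 6.87 and 7.94 in control cells against 6.25 and 6.04 in knockdown cells. Its change of -1.27 (adjusted p = 0.017) became -0.73 without scrambled replicate 2, and the call also ended without shEZH2 replicate 1 (-1.37) and shEZH2 replicate 2 (-1.16).

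Among rises of genes whose higher group mean reached the floor, DSE led. It encodes dermatan sulfate epimerase, which converts glucuronic to iduronic acid in chondroitin chains. DSE read 6.64 and 6.92 on the scrambled arrays and 8.40 and 8.37 on the shEZH2 arrays, a 3.05-fold rise (1.61 ± 0.09, adjusted p = 2.36e-06). SAA1, an acute phase serum amyloid protein, followed at 6.54 and 6.30 against 7.95 and 7.81 (1.46 ± 0.14, adjusted p = 0.000289). Next came DUSP6, the phosphatase that shuts off ERK and is induced by it. It went from 6.33 and 6.32 to 7.53 and 7.74 (1.32 ± 0.14, adjusted p = 0.000439). No array of one group reached the range of the other for any of them. SERPINE2, a secreted inhibitor of thrombin and urokinase, read 6.67 and 6.70 against 7.91 and 7.86 (1.20 ± 0.07, adjusted p = 7.16e-06). GDA, the guanine deaminase of purine breakdown, read 5.22 and 5.26 in control cells, below the floor, and 6.49 and 6.54 in knockdown cells (1.28 ± 0.10, adjusted p = 2.88e-05).

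Rises of 0.8 to 1.1 made up the rest of the 15. Stable ones were SRPX2, a secreted sushi-repeat protein (1.02), MGLL, which hydrolyses monoglycerides (0.94), the mitochondrial dehydrogenase HSD17B10 (0.90), EPHB6, an ephrin receptor without kinase activity (0.90), VIM (0.90), the fatty acyl reductase FAR2 (0.88) and MYEF2 (0.83). HSD17B10 was the brightest of them, at 9.48 and 9.40 against 10.37 and 10.32. Without scrambled replicate 2, the calls ended for the prostaglandin transporter SLCO2A1 (0.91; 0.90 without it, adjusted p = 0.0627), the galectin LGALS1 (0.90; 0.85, adjusted p = 0.0601) and the lysosomal GTPase RRAGD (0.84; 0.91, adjusted p = 0.0651). The call of RRAGD also ended without shEZH2 replicate 2 (0.71).

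**Figure D1:**
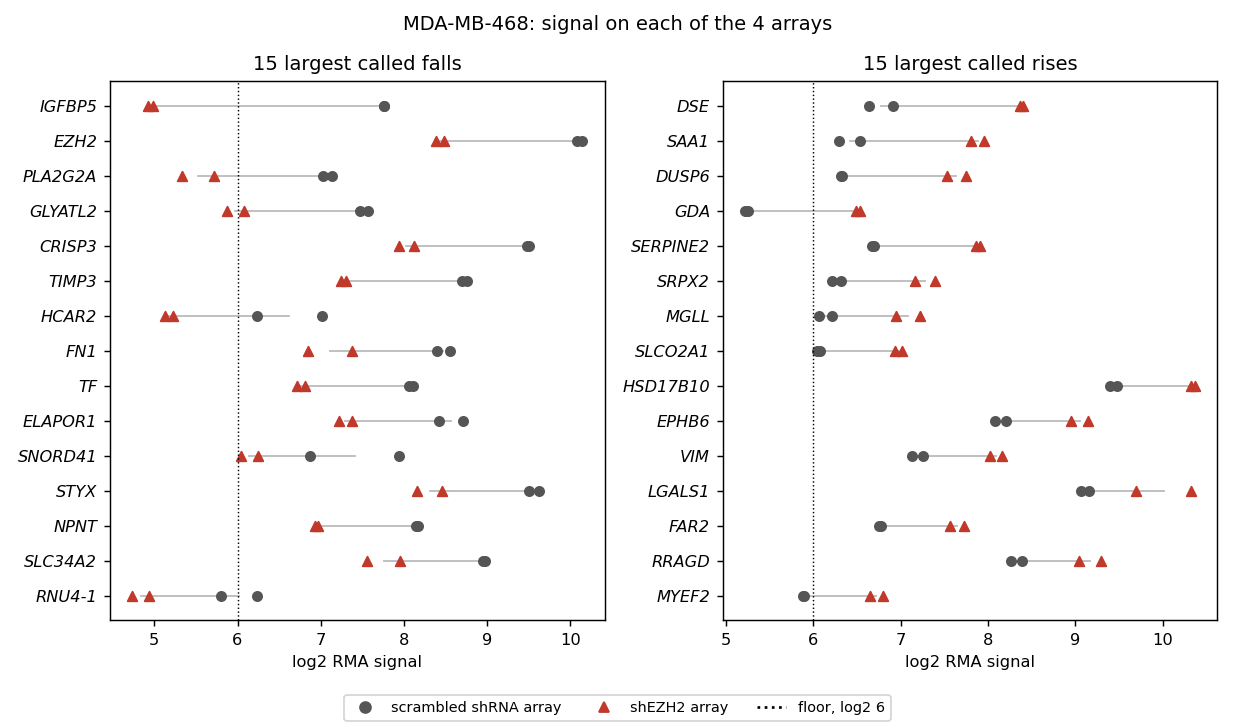
Log2 RMA signal on each MDA-MB-468 array for the 15 largest called falls (left) and the 15 largest called rises (right); circles are scrambled arrays, triangles shEZH2 arrays, the grey line joins the group means and the dotted line is the log2 6 floor. The 2 groups are apart for every gene, as the rule that chose them requires, and IGFBP5 moves farthest, from 7.76 to below the floor.

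**Figure D2:**
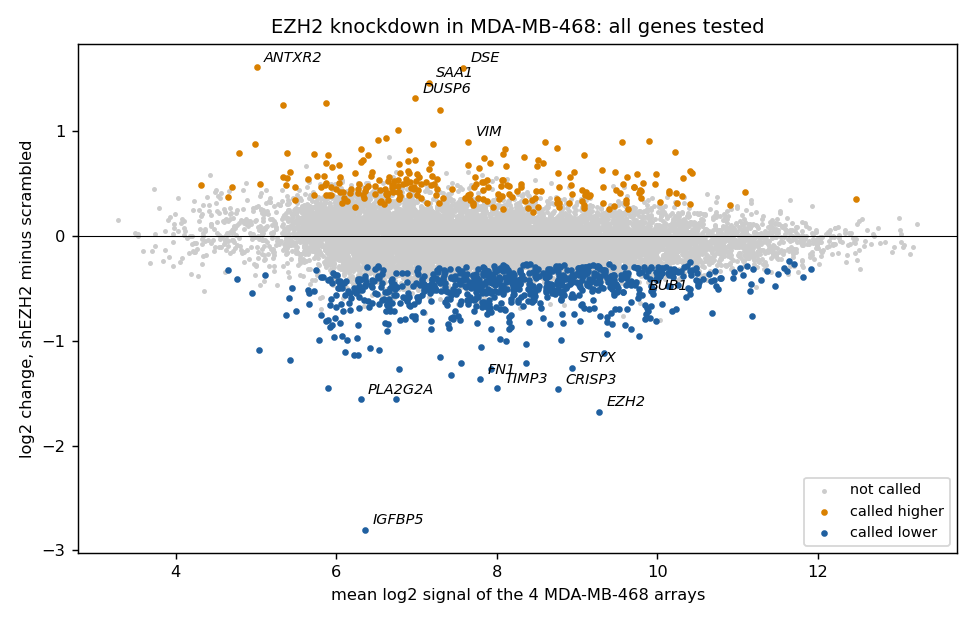
Log2 change (shEZH2 minus scrambled) against mean log2 signal of the 4 MDA-MB-468 arrays, 1 point per gene tested (11145 genes); orange points were called higher (241) and blue points called lower (752) by limma. Called falls outnumber called rises across the signal range, and IGFBP5 stands alone at -2.80.

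Matrix and adhesion genes moved in both directions. Of 72 tested, 6 rose (8.33%) and 9 fell (12.5%), against 2.16% and 6.75% of all genes. With the floor asked of 2 of the 4 MDA-MB-468 arrays, 53 members remained. The rest were tested only with the help of HCC70 arrays, among them ANTXR2, which is counted in the 6 rises. The median change was 0.021 and turned to below 0 when arrays were centred on their medians. Besides FN1 and TIMP3, stable falls were seen for LOXL2, which crosslinks collagen, at 9.50 and 9.36 against 8.82 and 8.68 (-0.68, adjusted p = 0.00476), for tenascin C (TNC), at 7.03 and 6.95 against 6.56 and 6.13 (-0.64, adjusted p = 0.00795), and for the sheddase ADAM17, at 9.68 and 9.80 against 9.11 and 9.25 (-0.56, adjusted p = 0.00297). RECK, an anchored inhibitor of metalloproteases, had a change of -0.44 whose call held without scrambled replicate 1 but ended at -0.37 when scrambled replicate 2 was dropped, at -0.41 when shEZH2 replicate 1 was, and at -0.46 when shEZH2 replicate 2 was. On the rising side stood DSE, SERPINE2 and ANTXR2, a receptor for collagen VI fragments and laminin. ANTXR2 read 4.06 and 4.35 against 5.88 and 5.75 (1.61, adjusted p = 8.16e-05), below the floor on all 4 arrays, so its size is uncertain. Smaller called rises of DDR1, a collagen receptor kinase (0.41), and of the integrin genes ITGA5 (0.47) and ITGA2 (0.23) all ended without scrambled replicate 2 (0.34, 0.35 and 0.26) and without shEZH2 replicate 1 (0.32, 0.44 and 0.23), and those of ITGA5 (0.51) and ITGA2 (0.23) also without shEZH2 replicate 2. That of ITGA2 ended without scrambled replicate 1 too (0.20). In the insulin-like growth factor axis, 14 genes were tested (3 receptors, 5 binding proteins, 3 proteases and inhibitors, 3 adaptors), and the 13 other than IGFBP5 did not pass. The share called lower was thus 7.14%, near the 6.75% of all genes.

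MAP kinase feedback genes are transcribed when ERK is active, and most of their products damp the same pathway. Of 27 tested, 4 rose (14.8%, against 2.16% of all genes) and 1 fell (3.7%, against 6.75%). DUSP6 is described above. DUSP5, the nuclear ERK phosphatase, read 8.09 and 8.04 against 8.53 and 8.53 (0.46 ± 0.07, adjusted p = 0.00357). ETV4, an ETS factor downstream of ERK, was at 6.15 and 6.13 against 6.67 and 6.84 (0.62 ± 0.10, adjusted p = 0.00471). Its relative ETV1 went from 4.75 and 4.68 to 5.87 and 6.07 (1.25 ± 0.16, adjusted p = 0.00122). Both group means of ETV1 (4.71 and 5.97) were below the floor, so the size of its rise is uncertain. It passed the filter only with the help of HCC70 arrays. The rises of all 4 were stable, and for each of them both knockdown arrays lay above both controls. JUN was the called fall (-0.37, adjusted p = 0.0253), lost without scrambled replicate 1 (-0.32), scrambled replicate 2 (-0.42) or shEZH2 replicate 1 (-0.30).

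Upstream of this pathway, EGFR read 11.34 and 11.37 on the scrambled and 11.56 and 11.11 on the shEZH2 arrays. The groups overlapped (change -0.02, adjusted p = 0.948). Among 14 EGFR family receptors, ligands and inhibitors, 1 was called, higher (7.14%, against 2.16% of all genes). This was HBEGF, a heparin-binding ligand of EGFR, at 6.66 and 6.83 against 7.20 and 7.41 (0.56 ± 0.13, adjusted p = 0.0202). The call ended without scrambled replicate 1 (0.48), scrambled replicate 2 (0.65) or shEZH2 replicate 2 (0.46).

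Acute phase and antimicrobial genes, many of them secreted by glandular epithelium, changed in both directions. Of 19 tested, 3 rose (15.8%) and 7 fell (36.8%), against 2.16% and 6.75% of all genes. SAA1 rose, as given above, and its neighbour SAA2 read 8.31 and 8.13 against 9.01 and 8.83 (0.70, adjusted p = 0.00523; 0.61 and no longer called without scrambled replicate 2). These genes are near copies, so signal may be shared between them. The defensin gene DEFB1 changed by 0.50 (adjusted p = 0.0159), and leaving out scrambled replicate 1 (0.41) or shEZH2 replicate 2 (0.46) ended the call. Among falls, PLA2G2A, CRISP3 and TF are described above. Complement C3 read 7.71 and 7.92 against 7.12 and 6.82 (-0.84 ± 0.13, adjusted p = 0.00321), and elafin (PI3), an elastase inhibitor, 10.23 and 10.20 against 9.70 and 9.63 (-0.55 ± 0.08, adjusted p = 0.003). Both were stable. S100A7 (psoriasin) was at 8.17 and 8.90 against 7.49 and 7.61 (-0.99, adjusted p = 0.0299). That call ended without scrambled replicate 2 (-0.62), shEZH2 replicate 1 (-0.93) or shEZH2 replicate 2 (-1.04).

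Interferon response genes are induced by type I interferon in antiviral defence. Of 43 tested, 2 rose (4.65%) and 6 fell (14%), against 2.16% and 6.75% of all genes. The median change was -0.11 against -0.046 over all genes. The shift rested on single arrays: without scrambled replicate 2 the median was -0.008 (-0.039 over all genes). Without shEZH2 replicate 1 it was -0.06 (-0.052 over all genes). XAF1, a pro-apoptotic interferon target, was called lower whichever array was left out (-0.76, adjusted p = 0.00321), but its values of 5.76 and 5.74 against 4.91 and 5.08 were all below the floor. It was tested only because HCC70 arrays reached the floor. MX1, a GTPase that blocks viruses, read 7.29 and 7.41 against 6.82 and 6.77 (-0.56, adjusted p = 0.00692), with a change of -0.50 and no call without scrambled replicate 2. IFITM1 (-0.61), SAMD9 (-0.53), RIGI (-0.425) and IFI6 (-0.41) were also called lower, and each lost the call without scrambled replicate 2 (-0.42, -0.32, -0.30 and -0.40) and without shEZH2 replicate 1 (-0.64, -0.50, -0.34 and -0.31). The call of IFITM1 also ended without shEZH2 replicate 2 (-0.58), and that of IFI6 without scrambled replicate 1 (-0.42). HERC5 (0.47) and IFI44 (0.38) were called higher, and neither was called when any 1 of the 4 arrays was left out.

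Of 26 cytokine and NF-kB genes, 2 fell (7.69%, near the 6.75% of all genes). With the floor asked of 2 of the 4 MDA-MB-468 arrays, 17 of the 26 remained. NFKBIA, the inhibitor that holds NF-kB in the cytoplasm, read 8.67 and 8.69 against 8.26 and 8.04 (-0.53 ± 0.08, adjusted p = 0.00399), a stable call. TNFSF10, which encodes the death ligand TRAIL, was at 9.62 and 10.02 against 9.19 and 9.07 (-0.69, adjusted p = 0.00622), and changed by -0.49 without scrambled replicate 2 (adjusted p = 0.0561). Of 14 antigen presentation genes, 1 was called, higher (7.14%, against 2.16% of all genes). This was HLA-DMB (0.49, adjusted p = 0.0498), below the floor on all 4 arrays. Its call ended without scrambled replicate 2 (0.23), shEZH2 replicate 1 (0.40) or shEZH2 replicate 2 (0.57).

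The series title asks about lineage identity, and mammary lineage markers were read for it. Luminal progenitor markers are genes of the hormone receptor negative luminal cells that share features with basal-like tumours. Of 12 tested, 5 fell (41.7%, against 6.75% of all genes), with a median change of -0.24. BBOX1, an enzyme of carnitine synthesis, read 6.73 and 6.95 against 5.72 and 5.70 (-1.13 ± 0.09, adjusted p = 6.62e-05). EHF, an epithelial ETS factor, was at 9.19 and 9.47 against 8.52 and 8.65 (-0.74 ± 0.10, adjusted p = 0.00198). PROM1, which encodes the surface protein CD133, was at 10.29 and 10.47 against 9.67 and 9.79 (-0.65 ± 0.09, adjusted p = 0.00238). Together with SLC34A2 these 3 were stable, and their groups did not overlap. CD14 read 10.15 and 10.06 against 9.70 and 9.70 (-0.41, adjusted p = 0.0229), but the call ended when any 1 array was left out, with changes of -0.36 and -0.45 without scrambled replicate 1 and 2 and -0.40 and -0.41 without shEZH2 replicate 1 and 2. KIT, the receptor kinase that defines these cells, was below the floor on all 4 arrays, at 4.001 and 4.207 against 4.06 and 4.17.

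Basal and myoepithelial markers belong to the contractile outer layer of the gland. Of 19 tested, 6 fell (31.6%, against 6.75% of all genes), with a median change of -0.21. Without scrambled replicate 2 the median was -0.10, against -0.039 over all genes. JAG2, a Notch ligand, read 7.31 and 7.20 against 6.35 and 6.57 (-0.80 ± 0.12, adjusted p = 0.00266), and TRIM29, a squamous and basal gene, 9.63 and 9.59 against 9.16 and 9.16 (-0.44 ± 0.07, adjusted p = 0.00551). These falls were stable. CRYAB, the small heat shock protein of basal-like tumours, read 8.82 and 8.81 against 8.02 and 7.97 (-0.82, adjusted p = 0.00728; without scrambled replicate 2 -0.82, adjusted p = 0.0627). MME, the surface peptidase CD10, was at 10.21 and 10.25 against 9.32 and 9.64 (-0.75, adjusted p = 0.0109). Its call ended without scrambled replicate 2 (-0.73) or shEZH2 replicate 1 (-0.59), as did that of ID4 (-0.41; -0.29 and -0.39). The smooth muscle gene TAGLN changed by -0.54 (adjusted p = 0.0413), lost without scrambled replicate 1 (-0.53), scrambled replicate 2 (-0.55) or shEZH2 replicate 1 (-0.40).

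The keratins that define the lineages did not pass the test. Basal KRT5 was at 12.72 and 12.63 on the scrambled and 12.64 and 12.74 on the shEZH2 arrays (change 0.02 ± 0.08, adjusted p = 0.899), and KRT14 at 8.70 and 8.72 against 8.77 and 8.59 (-0.03 ± 0.09, 0.883). Luminal KRT8 read 12.54 and 12.60 against 12.33 and 12.55 (-0.13 ± 0.09, 0.394), and KRT18 12.66 and 12.58 against 12.58 and 12.47 (-0.09 ± 0.10, 0.592). The groups overlapped for all 4 keratins. KRT5, KRT8 and KRT18 are near the top of the scale, where arrays compress differences. GATA3, the master regulator of luminal cells, read 8.08 and 8.24 against 8.17 and 7.64 (-0.25 ± 0.14, adjusted p = 0.287). Of 16 mature luminal markers, 1 fell and 1 rose (6.25% each, against 6.75% and 2.16% of all genes). SLC39A6, a zinc transporter, fell from 8.59 and 8.68 to 8.15 and 8.20 (-0.46, adjusted p = 0.00477). Without scrambled replicate 2 its change was -0.42 and the call ended. MYB changed by 0.26 (adjusted p = 0.0463), with no call when any 1 array was left out (0.23 to 0.29).

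Mesenchymal markers split. Of 12 tested, 3 rose (25%) and 1 fell (8.33%), against 2.16% and 6.75% of all genes. The intermediate filament gene VIM read 7.13 and 7.25 against 8.16 and 8.03 (0.90 ± 0.09, adjusted p = 0.000371), and TGFBI, a matrix protein induced by TGF-beta, 8.64 and 8.76 against 9.46 and 9.48 (0.77 ± 0.09, adjusted p = 0.000634). Both were stable; LGALS1 is given above. TGFBR2 was lower (-0.45, adjusted p = 0.03), and leaving out any 1 array ended this call (-0.37 to -0.53). FN1, also used as a mesenchymal marker, is counted with the matrix genes and fell. CDH1, the epithelial cadherin, read 9.53 and 9.60 against 9.32 and 9.23 (-0.29 ± 0.10, adjusted p = 0.0967) and was not called. Of 30 junction genes, 5 fell (16.7%) and 1 rose (3.33%), against 6.75% and 2.16% of all genes, with a median change of -0.16. The desmosomal cadherin DSC2 was the stable one, at 10.20 and 10.30 against 9.27 and 9.31 (-0.96 ± 0.07, adjusted p = 2.60e-05), nearly 2-fold lower. Calls of DSC3 (-0.47), DSG2 (-0.33), MARVELD3 (-0.33), CLDN3 (-0.32) and NECTIN1 (0.47) each ended without scrambled replicate 2 (-0.46, -0.25, -0.35, -0.37 and 0.47) and without shEZH2 replicate 1 (-0.36, -0.35, -0.33, -0.33 and 0.31). They also ended without scrambled replicate 1 for DSC3 (-0.47), MARVELD3 (-0.31), CLDN3 (-0.27) and NECTIN1 (0.48), and without shEZH2 replicate 2 for DSG2 (-0.32), MARVELD3 (-0.32) and CLDN3 (-0.31).

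Cell cycle genes were read in 2 groups, those that replicate DNA and those that carry out mitosis. Mitosis genes were lower in knockdown cells while replication genes were near the background: 18 of 75 mitosis genes fell (24%, median change -0.26) and 4 of 61 replication genes (6.56%, median -0.08), against 6.75% and -0.046 over all genes. In this bulk RNA, fewer cells in mitosis and less of these transcripts per cell cannot be told apart. By role, spindle and cytokinesis genes had 8 of 21 called lower (median -0.345), checkpoint and kinetochore genes 4 of 21 (-0.26), cyclins and kinases 3 of 17 (-0.25), and chromatin and exit genes 3 of 16 (-0.15).

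BUB1, the kinase of the spindle checkpoint, read 10.03 and 10.14 on the scrambled and 9.47 and 9.57 on the shEZH2 arrays (-0.57 ± 0.08, adjusted p = 0.00198). It was the mitosis gene called whichever array was left out. CENPE, the kinetochore motor, had a larger but less even change: 7.41 and 7.82 against 6.51 and 6.96 (-0.88 ± 0.20, adjusted p = 0.0202). KIF20B, a kinesin of cytokinesis, changed by -0.74, KNL1, the kinetochore scaffold, by -0.60, CENPF by -0.47 and DLGAP5, a microtubule stabiliser, by -0.46. All 5 were called, and without scrambled replicate 2 none was: CENPE had -0.68, KIF20B -0.57, KNL1 -0.46, CENPF -0.37 and DLGAP5 -0.38. Without shEZH2 replicate 1 the calls of CENPE (-0.66), KIF20B (-0.55), KNL1 (-0.54) and DLGAP5 (-0.34) ended as well, and without shEZH2 replicate 2 that of CENPF (-0.42).

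The mitosis count depended on 2 arrays. Most of its calls ended without scrambled replicate 2 or without shEZH2 replicate 1, fits in which calls over all genes dropped steeply as well. Scrambled replicate 2 lay above its duplicate in 65 of the 75 genes (86.7%, against 56.3% of all genes). The median change was -0.30 without scrambled replicate 1, -0.20 without scrambled replicate 2, -0.20 without shEZH2 replicate 1 and -0.31 without shEZH2 replicate 2. Over all genes these medians were -0.057, -0.039, -0.052 and -0.04, in the same order. The part of this gap between the control arrays in the result was not tested.

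Replication genes called lower were MCM6, a subunit of the replicative helicase, at 10.56 and 10.75 against 9.96 and 10.19 (-0.58 ± 0.10, adjusted p = 0.00483), ORC1, which marks origins (-0.38), E2F2, an activator of S phase genes (-0.35), and POLA1, the primase-linked polymerase (-0.34). All 4 calls ended without scrambled replicate 2, with changes of -0.48, -0.29, -0.30 and -0.31. Calls of ORC1 (-0.31) and POLA1 (-0.31) also ended without shEZH2 replicate 1, and that of E2F2 without scrambled replicate 1 (-0.40) and shEZH2 replicate 2 (-0.21). Of 36 DNA repair genes, 1 was called, lower (2.78%, against 6.75% of all genes). This was ATR, the kinase that senses stalled forks (-0.35). It was not called without scrambled replicate 2 (-0.26), shEZH2 replicate 1 (-0.335) or shEZH2 replicate 2 (-0.36).

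Promoters of mitosis genes are known for the hexamer TTTGAA close to the start site, the core of the cell cycle genes homology region. To show it in genes called lower here, the 100 bases before the start are printed for 4 of them, 5′ to 3′ on the gene's strand, with TTTGAA and its reverse complement TTCAAA in capitals. They come from RefSeq on GRCh38.p14: CKAP2L at chr2:112764610-112764709 (minus strand), PLK1 at chr16:23678789-23678888 (plus), KIF11 at chr10:92593030-92593129 (plus) and ANLN at chr7:36389762-36389861 (plus). These 4 were chosen after the matches were seen. CKAP2L (-0.435) and KIF11 (-0.36) act on the spindle, PLK1 (-0.385) is a mitotic kinase and ANLN (-0.345) builds the cleavage furrow.
CKAP2L: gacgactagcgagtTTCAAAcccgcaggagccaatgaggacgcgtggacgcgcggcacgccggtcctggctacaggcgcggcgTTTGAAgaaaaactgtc
PLK1: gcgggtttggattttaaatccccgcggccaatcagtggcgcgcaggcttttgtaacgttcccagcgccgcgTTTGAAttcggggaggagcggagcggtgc
KIF11: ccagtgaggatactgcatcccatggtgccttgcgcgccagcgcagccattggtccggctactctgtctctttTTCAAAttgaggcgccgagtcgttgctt
ANLN: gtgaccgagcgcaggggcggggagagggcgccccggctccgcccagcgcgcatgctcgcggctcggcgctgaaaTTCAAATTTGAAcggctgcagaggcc
The 4 matches nearest the start begin 17 bases (CKAP2L), 29 bases (PLK1), 28 bases (KIF11) and 20 bases (ANLN) before it.

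TTTGAA was searched on both strands in the 250 bases before the start of each gene in the RefSeq promoter table, with the first listed start taken for a gene with several. It was present in 28 of the 63 tested mitosis genes that had a promoter entry (44.4%), in 8 of the 17 called lower that had one (47.1%), in 2 of 52 replication genes (3.85%), in 8.38% of 9080 genes tested and in 13.6% of all 27305 genes of the table. Within the last 50 bases it was found in 17 mitosis genes (27%), 6 of those called lower (35.3%) and 1.29% of genes tested. The mitosis genes that were called lower thus carried the hexamer at about the share of mitosis genes in general.

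**Figure D3:**
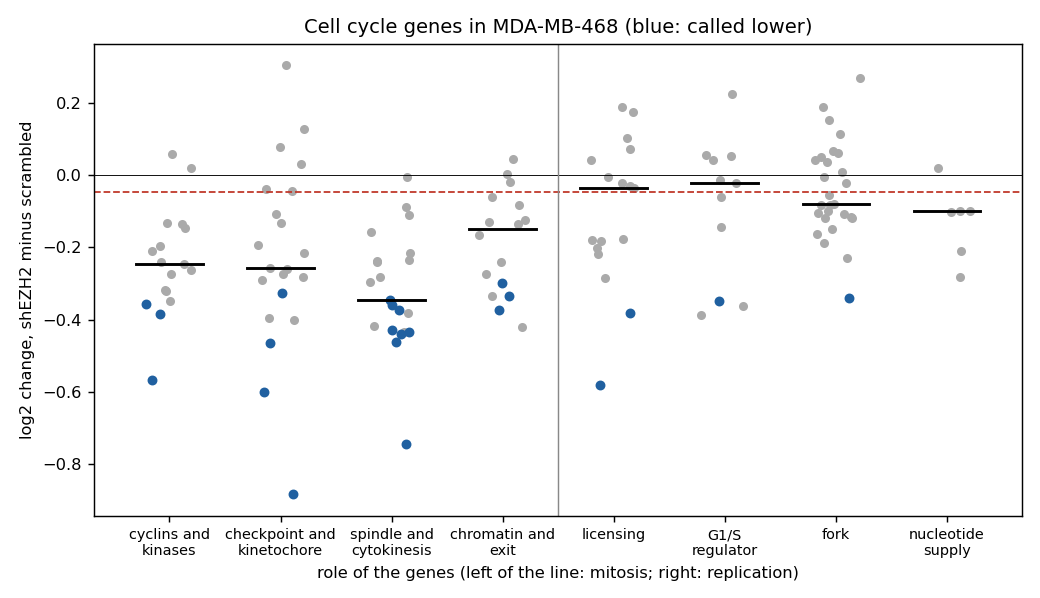
Log2 change (shEZH2 minus scrambled) of each tested mitosis gene (left of the vertical line) and replication gene (right), by role; blue points were called lower by limma, black bars are medians and the dashed line is the median of all genes tested (-0.046). Medians of the 4 mitosis roles run from -0.345 to -0.15, and all lie below the dashed line.

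Of 32 tested genes that Polycomb is known to silence in development and cancer, 3 were called, all lower (9.38%, against 6.75% of all genes). These were TIMP3, the Wnt antagonist SFRP1 at 10.11 and 10.28 against 9.83 and 9.56 (-0.50, adjusted p = 0.0317), and BMP2 (-0.42, adjusted p = 0.0447). The calls of SFRP1 and BMP2 ended without scrambled replicate 2 (-0.42 and -0.25) and without shEZH2 replicate 2 (-0.37 and -0.325), and that of BMP2 without shEZH2 replicate 1 (-0.51). At an unadjusted limma p under 0.05, 6 members were higher and 4 lower, against 1 and 5 with arrays centred on their medians and 2 and 4 in the fit of the 4 arrays alone. The median change was 0.08 (0.025 with centring) against -0.046 over all genes, and 21 of the 32 changes were above 0, as were 4544 of all 11145. Dim clusters leaned upward in general. By mean signal, their median change was 0.08 below log2 6, 0.026 at 6 to 7, -0.033 at 7 to 8 and -0.057 at 8 to 9. The list was dimmer than all genes, averaging 7.07 and 7.03 on the scrambled arrays against 7.99 and 8.01. With the floor asked of 2 of the 4 MDA-MB-468 arrays, 23 members remained. The part of signal level in the lean was not tested. In 13 of the 32 both shEZH2 arrays lay above both scrambled arrays, and in 7 below them. Over all 11145 genes these counts were 2111 and 3680. The 14 developmental factors tested had a median of 0.19, with 10 changes above 0 and 4 below, and none was called either way. CDKN2A, the cell cycle inhibitor locus repressed by Polycomb in normal cells, was already at 9.04 on both scrambled arrays and read 8.853 and 9.003 on the shEZH2 arrays (-0.11 ± 0.08, adjusted p = 0.398). CDKN1A, the p53-induced inhibitor, read 5.73 and 5.65 against 6.06 and 5.69 (0.18 ± 0.11, adjusted p = 0.351). Of 28 p53 targets and CDK inhibitors, 1 was called, higher (3.57%, against 2.16% of all genes). This was MDM2, at 8.80 and 8.88 against 9.32 and 9.23 (0.44, adjusted p = 0.019). That call ended without scrambled replicate 1 (0.40), scrambled replicate 2 (0.48) or shEZH2 replicate 1 (0.39). Of 12 Notch genes, JAG2 was the one called, lower (8.33%, near the 6.75% of all genes).

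Hypoxia and glycolysis genes had 5 of 33 called lower (15.2%, against 6.75% of all genes), with a median change of -0.07 against -0.046. Glycolytic enzymes such as LDHA (0.06) and PGK1 (-0.06) were not called. The called members are targets of HIF1: the mitophagy receptors BNIP3 (-0.48, adjusted p = 0.00888) and BNIP3L (-0.37, 0.0407), the prolyl hydroxylase P4HA1 of collagen (-0.54, 0.0243), the glycolytic regulator PFKFB3 (-0.37, 0.016) and the peptide hormone ADM (-0.345, 0.0477). All 5 calls ended without scrambled replicate 2, at -0.39, -0.35, -0.38, -0.38 and -0.36. Without shEZH2 replicate 1, those of P4HA1 (-0.41), BNIP3L (-0.28) and ADM (-0.37) ended, without shEZH2 replicate 2 those of PFKFB3 (-0.31) and ADM (-0.32), and without scrambled replicate 1 those of BNIP3L (-0.39) and ADM (-0.33).

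Chromatin genes outside Polycomb had 5 falls (10.9%) and 1 rise (2.17%) among 46, against 6.75% and 2.16% of all genes. PBRM1, a subunit of the PBAF remodeller, changed by -0.43 (adjusted p = 0.0199), the demethylases KDM4A by -0.36 (0.016) and KDM5B by -0.30 (0.0441), NSD3, a lysine 36 methyltransferase, by -0.35 (0.0457), HDAC1 by -0.33 (0.0158) and HDAC9 by 0.39 (0.0216). HDAC1 was bright, at 11.81 and 11.75 against 11.41 and 11.49. None of these calls held without scrambled replicate 2 (PBRM1 -0.31, KDM4A -0.325, KDM5B -0.28, NSD3 -0.315, HDAC1 -0.36, HDAC9 0.405). Calls also ended without shEZH2 replicate 1 for NSD3 (-0.37), HDAC1 (-0.29) and HDAC9 (0.26), without shEZH2 replicate 2 for PBRM1 (-0.365), KDM5B (-0.21) and NSD3 (-0.32), and without scrambled replicate 1 for KDM5B (-0.33), NSD3 (-0.38), HDAC1 (-0.30) and HDAC9 (0.38).

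Histone genes whose transcripts are made in S phase had 4 of 46 called lower (8.7%, near the 6.75% of all genes). H4C13 was at 9.24 and 9.52 against 8.60 and 8.85 (-0.655, adjusted p = 0.00471), H3C10 changed by -0.54, H2BC10 by -0.53 and H3C1 by -0.46. Histone genes are near copies of each other and may share signal. Small nucleolar and Cajal body RNAs guide the modification of other RNAs. Of these, 4 of 77 were called lower (5.19%, against 6.75% of all genes): SNORD41, SNORD60 (-0.95), SNORD33 (-0.77) and SNORD8 (-0.60). Scrambled replicate 2 was the highest array for all 8 of these genes. Without it H4C13 had -0.51, H3C10 -0.425, H2BC10 -0.27, H3C1 -0.32, SNORD60 -0.64, SNORD33 -0.44 and SNORD8 -0.38, and no call held. Further calls ended without shEZH2 replicate 1 for H2BC10 (-0.56), SNORD60 (-1.05), SNORD33 (-0.93) and SNORD8 (-0.62), and without shEZH2 replicate 2 for H2BC10 (-0.50), H3C1 (-0.40), SNORD60 (-0.85), SNORD33 (-0.61) and SNORD8 (-0.58). KDR, a vascular receptor among the markers of other cell types, behaved likewise: it read 6.10 and 6.28 against 5.64 and 5.23 (-0.75, adjusted p = 0.00716), and -0.66 with no call without scrambled replicate 2.

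**Figure D4:**
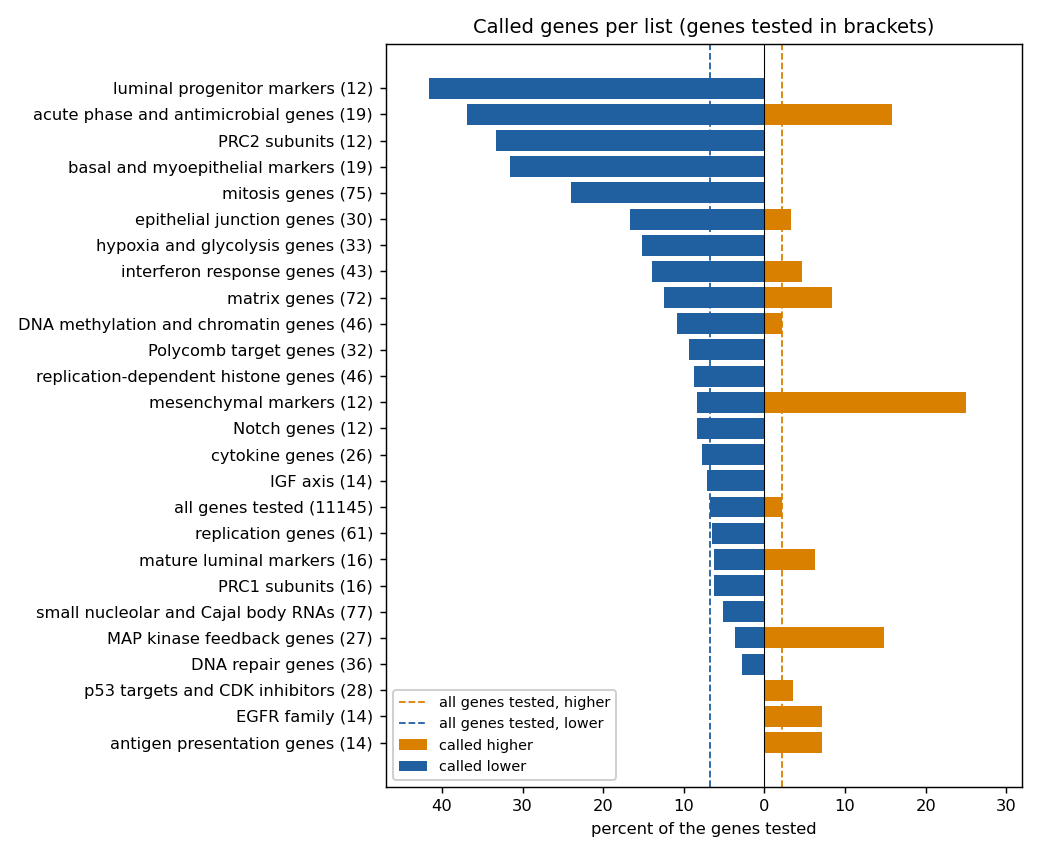
Share of the tested genes of each list that were called lower (blue, to the left) and higher (orange, to the right) in MDA-MB-468, for lists with at least 12 genes tested; dashed lines mark the shares over all 11145 genes (6.75% lower, 2.16% higher). Luminal progenitor markers (41.7% lower) and mesenchymal markers (25% higher) extend farthest, each on only 12 genes.

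To see which changes were shared with the other line, the change in MDA-MB-468 was set against the change in HCC70 in the same model. Over all clusters the changes differed in 2141 (13.2%, limma adjusted p under 0.05), with MDA-MB-468 the higher in 690 (4.27%) and the lower in 1451 (8.97%). Among the 30 largest changes in MDA-MB-468, 21 differed from HCC70 with scrambled set a as the HCC70 control, 22 with set b, and 18 differed in the same direction with both. As these 30 were chosen for their size in MDA-MB-468, their difference from another line is a description. Some of them, such as CRISP3 and TF, had HCC70 means below the floor in both scrambled set a and shEZH2, where a fall cannot be measured.

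IGFBP5 showed the widest split that did not depend on the control: -2.80 in MDA-MB-468, against 0.42 in HCC70 with set a and 0.38 with set b (difference -3.22 ± 0.14 with set a, adjusted p = 2.79e-07). TIMP3 fell here and had changes of 0.78 and 0.34 in HCC70 (difference -2.23 ± 0.16, adjusted p = 1.67e-05). DSE had 0.16 and -0.21 there (1.45 ± 0.13, adjusted p = 4.77e-05), and SAA1 -0.41 and -1.13 (1.88 ± 0.20, adjusted p = 0.000228). With either control the HCC70 values were above 0 for IGFBP5 and TIMP3, below 0 for SAA1 and close to 0 for DSE.

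PLA2G2A went the same way in both lines, but further in HCC70, at -4.16 with set a and -4.37 with set b (difference 2.60 ± 0.18, adjusted p = 1.02e-05). SLC34A2 had -1.54 and -1.76 there, and its difference of 0.33 ± 0.17 did not pass (adjusted p = 0.223). SERPINE2 had similar values in the 2 lines: 1.20 here, 1.31 and 1.36 in HCC70 (difference -0.11 ± 0.10, adjusted p = 0.533). For CRYAB the values were -0.82 here and -1.07 and -1.41 in HCC70 (difference 0.25 ± 0.21, adjusted p = 0.456).

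For other genes the answer hung on the HCC70 control. FN1 was at 2.06 with set a and 0.175 with set b, VIM at 1.24 and -0.17, DUSP6 at 0.75 and -0.47 and ELAPOR1 at -0.71 and -2.66. The difference between lines in the change of VIM turned from -0.34 with set a to 1.07 with set b. Of the stable feedback genes, ETV4 and DUSP5 had changes below 0 in HCC70, at -0.08 with set a and -0.92 with set b for ETV4 and -0.04 and -0.61 for DUSP5 (difference with set a 0.70 ± 0.14, adjusted p = 0.00929, and 0.50 ± 0.10, 0.00888). ETV1 was at 1.73 and 1.07 in HCC70 (difference -0.47 ± 0.22, adjusted p = 0.183).

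Over all genes, the difference between lines was called higher in MDA-MB-468 for 3.51% and lower for 10.3%. The interferon response genes had a median change of -0.11 in MDA-MB-468 and 0.77 in HCC70 with set a, or 0.35 with set b, and the difference was called lower in MDA-MB-468 for 30 of the 43 with set a and for 20 with set b. Of the 43, 14 had fewer than 2 MDA-MB-468 arrays at the floor and were tested only through HCC70 arrays, a filter that favours a lower change here than there. Among the other 29, the difference was called lower for 19 with set a and 12 with set b. MX1 had -0.56 here against 1.49 and 0.27 there (difference with set a -2.05 ± 0.14, adjusted p = 1.02e-05; with set b -0.83, adjusted p = 0.00233). BUB1 was the mitosis gene with the firmest difference among those named, at -0.57 here and 0.11 and 0.20 in HCC70 (difference -0.68 ± 0.11, adjusted p = 0.00326). KIT, which was below the floor here, fell by 1.74 on the log2 scale in HCC70 (change -1.74 with set a, -2.53 with set b).

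**Figure D5:**
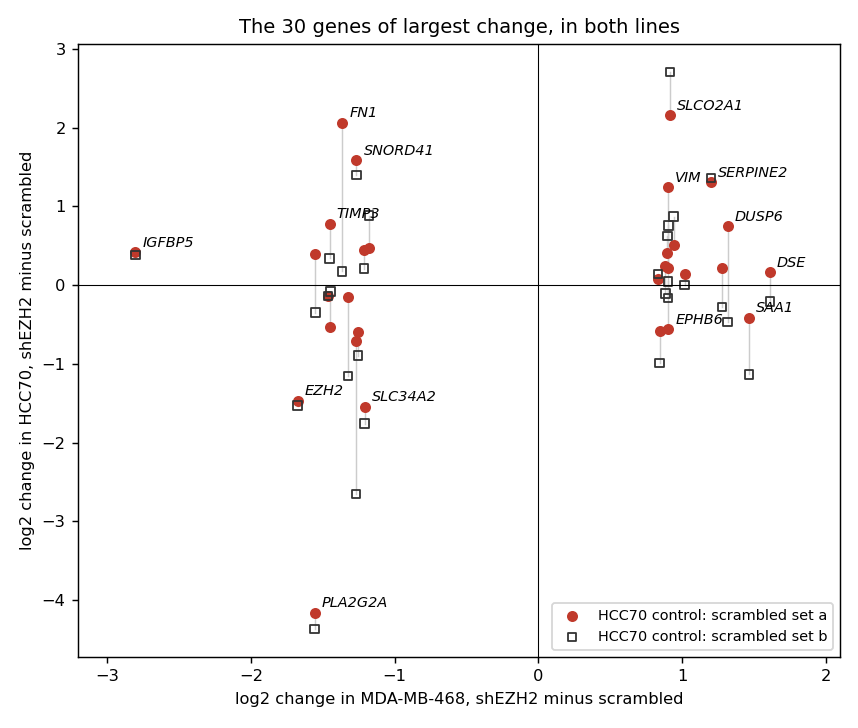
Log2 change on EZH2 knockdown in HCC70 (vertical) against MDA-MB-468 (horizontal) for the 30 genes of largest called change in MDA-MB-468; red circles use HCC70 scrambled set a and open squares set b, joined by a line for each gene. IGFBP5 (-2.80 against 0.42 and 0.38) and TIMP3 lie at the upper left with both control sets, PLA2G2A and EZH2 at the lower left, and FN1 moves by most of its height with the control set.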

How the data were processed

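The authors deposited 1 log2 signal per transcript cluster and array, made with RMA in Affymetrix Expression Console per the submitters' processing notes; the sources used here give neither software versions nor the genome build. RMA fits probes jointly over the arrays and tends to compress changes of dim clusters. Of 33297 clusters, 19460 had exactly 1 symbol in the platform annotation and could be named; the brightest cluster over the 16 arrays stood for a gene with several. Clusters with at least 2 of 16 arrays at log2 6 were tested, 16175 in all. limma 3.58.1 in R 4.3.3 fitted 8 group means to all 16 arrays (8 residual and 3.70 prior degrees of freedom), two-sided, with Benjamini-Hochberg adjustment over all clusters tested and calls at an adjusted p under 0.05. Besides shEZH2 and both scrambled sets, the HCC70 groups in this fit were shEED, plKO Puro and fip EZH2. The number of arrays limits the precision. The labels do not say which scrambled set controls HCC70 shEZH2; set a was used because its sample codes run on into those of the shEZH2 arrays.

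Named were PRC2 subunits, the 15 largest called rises and falls whose arrays did not overlap and whose higher group mean reached log2 6, up to 6 called members per list and direction, and a panel of lineage and identity genes. Members, lists, tests and other settings were chosen with earlier results of these data known. Tested on simulated data with the group sizes of this comparison, the fit recovered 57 of 100 changes of 0.5 and 90 of 100 changes of 1 on the log2 scale, with 12 false calls. The simulated noise was drawn separately for each cluster and array. It held no shift shared by many genes of an array, so these counts do not give the false rate of the real data. Other settings tried were floors, scalings, variance options, a replicate block, the HCC70 control set and leaving out each array.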

Additional observations from a re-analysis of the deposited data

Results flagged for a closer look

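For 76 of the named genes the change in MDA-MB-468 differed from the change in HCC70 (limma interaction, adjusted p under 0.05, HCC70 scrambled set a). All values below are MDA-MB-468 minus HCC70 in log2 units, so a negative value means a lower change in MDA-MB-468. For some genes both HCC70 group means were below the log2 6 floor, where a fall cannot be measured. Among them were CRISP3 (3.81 scrambled set a, 3.67 shEZH2), MYEF2 (3.64, 3.72), TF (4.88, 4.73), KDR, BBOX1 and RECK. KIT, XAF1 and ANTXR2 were below the floor on all 4 MDA-MB-468 arrays. The part of signal below the floor in these differences was not tested. Among the largest rises, the difference was 1.45 for DSE, 1.88 for SAA1, 1.05 for GDA, 0.88 for SRPX2, -1.24 for SLCO2A1, 0.69 for HSD17B10, 1.46 for EPHB6, 0.64 for FAR2, 1.42 for RRAGD and 0.76 for MYEF2. Among the largest falls it was -3.22 for IGFBP5, 2.60 for PLA2G2A, -1.95 for GLYATL2, -1.32 for CRISP3, -2.23 for TIMP3, -3.43 for FN1, -1.17 for TF, -2.85 for SNORD41, -0.67 for STYX, -1.65 for NPNT and -1.65 for RNU4-1. Polycomb genes had differences of -0.55 for EZH1, -0.40 for RBBP4 and -0.64 for RYBP. Replication and repair genes had -0.52 for MCM6, -0.41 for POLA1 and -0.59 for ATR. Mitosis genes had -0.81 for KIF20B, -0.65 for KNL1, -0.68 for BUB1, -0.48 for CENPF and -0.61 for DLGAP5. For further matrix and junction genes the values were 1.72 for ANTXR2, 0.66 for DDR1, -1.18 for LOXL2, -1.39 for TNC, -0.63 for ADAM17, -1.20 for RECK, -0.35 for DSC2 and -0.41 for CLDN3. ERK feedback genes and the EGFR ligand had 0.70 for ETV4, 0.50 for DUSP5, -0.76 for JUN and 0.79 for HBEGF. In secreted defence and cytokine genes the difference was -2.48 for S100A7, -1.11 for C3, -1.19 for TNFSF10 and -1.19 for NFKBIA. The 6 interferon response genes had -2.29 for XAF1, -1.28 for IFITM1, -2.05 for MX1, -0.79 for SAMD9, -1.34 for RIGI and -1.63 for IFI6. Lineage genes had 0.42 for MYB, -1.08 for BBOX1, -0.84 for EHF, 0.58 for PROM1, -0.62 for JAG2, -0.67 for MME, 0.79 for KRT14, 1.75 for KIT and -1.10 for TGFBR2. HIF1 targets had -0.76 for P4HA1, -1.64 for BNIP3, -1.12 for PFKFB3, -0.81 for BNIP3L and -0.67 for ADM. The remaining differences were -1.33 for BMP2, -0.41 for KDM4A, -0.42 for KDM5B, -1.07 for H3C10, -1.84 for SNORD60, -1.62 for SNORD33, -1.06 for SNORD8 and -0.91 for KDR. With set b as the HCC70 control, 54 of the 76 differed in the same direction and 18 kept the sign without a call. The sign turned in 4: CLDN3 (0.66) and JUN (0.43) were called the other way, and C3 (0.07) and MME (0.44) were not called. Over all clusters tested, 2141 differed between the lines. No group had enough arrays to test for an array that stands apart.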

How the results depend on the processing

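EZH2 kept its call under every setting, with changes of -1.72 to -1.63 when 1 array was left out. Against 1343 calls (442 higher, 901 lower), no floor gave 848 (287, 561), the 4 MDA-MB-468 arrays alone 21 (9, 12), and centring gave 226 higher. Leaving out 1 array gave 231 to 1552 calls (87 to 610 higher, 144 to 942 lower); the lowest were without scrambled replicate 2 (231) and shEZH2 replicate 1 (628). Mitosis genes lower, 18, became 9 with no floor, 11 after quantile normalization, 0 with the 4 arrays alone (25 at an unadjusted limma p under 0.05) and 1 to 19 with an array left out. Replication genes lower, 4, became 2, 2, 0 (4 at an unadjusted limma p under 0.05) and 0 to 4. Clusters differing between lines, 2141, ran from 921 (without scrambled replicate 2) to 2633; without HCC70 set a replicate 1 they were 1201 and without replicate 2, 933. With HCC70 set b, some differences between lines that were not called with set a turned sign and were called. These included VIM (-0.34 with set a, 1.07 with set b), ELAPOR1 (-0.56, 1.39), ITGA2 (-0.10, 1.07) and PI3 (-0.19, 0.80). CLDN3 and JUN, called in opposite directions with the 2 sets, are given above. Over the clusters tested, the deviations of shEZH2 replicate 1 and scrambled replicate 1 from their group means had r = -0.0228. This value cannot show whether same-numbered replicates shared a culture or batch, on which the labels are silent. A replicate block gave 679 calls (229 higher, 450 lower), 10 mitosis genes and 1 replication gene. Of 117 named calls, 76 held with the block, 44 without scrambled replicate 2, 69 without shEZH2 replicate 1, 82 without shEZH2 replicate 2, 93 without scrambled replicate 1, 90 with no floor, 101 with centring, 102 after quantile normalization and 15 with the 4 arrays alone, and 0 reversed in any of these.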
